A study of Rattus norvegicus with 26 samples.

Results

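The Sox genes encode transcription factors that bind DNA through a shared HMG box and are sorted into groups by sequence. The SoxC factors (*Sox4*, *Sox11* and *Sox12*) are known from progenitors that stop dividing and begin to differentiate, and *Sox4* is a known target of TGFβ signaling. The SoxE factors include *Sox9*, which drives cartilage formation and is active in vascular mesenchyme, and *Sox10*, the regulator of neural crest and glia. *Sox18* (SoxF) acts in endothelium, *Sox5* and *Sox6* (SoxD) assist *Sox9* in cartilage, and *Sox15* (SoxG) was described in myoblasts.

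These 9 genes were followed while rat multipotent adult progenitor cells (rMAPC) were turned towards smooth muscle cells (SMC). Of the 9 genes, 7 had a probe named after them (12 of the 41012 probes), 6 had a probe well above background on at least 1 array, and 5 (*Sox4*, *Sox11*, *Sox9*, *Sox10* and *Sox18*, with 9 probes) could be tested among 24442 probes. No probe carried the name *Sox12* or *Sox5*, and both *Sox6* probes stayed below background on all 26 arrays. Those 3 genes were left out. Probes were selected by detection and by their mean level over the 26 arrays, so neither is given a test, and the genes were picked with earlier results of these data known. The arrays held 35287 distinct gene names in all.

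The arrays were 1-color Agilent rat arrays of 2 female Fischer rat bone marrow lines, Cl19 (donor age labelled 3 weeks) and 3c3 (donor stage labelled embryonic day 18). Each line was untreated on d0, or had received TGFβ1 and PDGF-BB in basal rMAPC medium without serum for 2, 4 or 6 days, with 3 arrays a day. The comparison cells were primary rat aortic SMC (2 arrays), whose RNA was bought. Each line came from its own isolation, and the study's methods call its 3 arrays of a day biological replicates without saying whether they were separate cultures, so p-values measure the spread between arrays. The lines and the primary SMC were also scanned on 3 separate days, so differences in level between them cannot be told apart from scan day, whereas the 4 days of a replicate lay on 1 slide. All levels below are log2 of the quantile-normalized signal, and a call means an adjusted p under 0.05 in limma over all tested probes.

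Several arrays touched the results. The array labelled Cl19 d2 replicate 1 lay closer to the 3c3 d2 arrays (root mean square difference 0.38 to 0.54) than to the other Cl19 d2 arrays (0.88 and 0.92), so Cl19 d2 values are given with and without it. On the 3c3 replicate 3 slide the median negative control signal reached 5.30 on d4 and 4.68 on d6, against 0.99 to 1.24 on all arrays of the other slides. Of 8 rMAPC markers, 7 were well above background on every d0 array of each line, the exception being *Sox2*. On d6 the number was 7 of 8 in Cl19, where the exception was *Pou5f1* rather than *Sox2*, and 8 of 8 in 3c3. All 9 smooth muscle markers were so in primary SMC, against 7 of 9 on d6 of Cl19 and 5 of 9 on d6 of 3c3. On d0 these numbers were already 6 of 9 in Cl19 and 5 of 9 in 3c3. Levels moved more than detection did. Of the 8 rMAPC markers, 6 were called lower by d6 in Cl19 (30.3% of all tested probes) and 2 higher. Their median change was -2.46. In 3c3, 5 of the 8 were lower and 2 higher, with a median change of -1.20. By d6, 5 of 9 smooth muscle markers were called higher in Cl19 (22% of all tested probes), with a median change of 2.38. In 3c3, 6 of 9 were higher (19.7%) and 1 lower (28.6%), with a median change of 2.32. Among the smooth muscle markers, *Myocd* and *Mylk* were not well above background on any d6 array of 3c3.

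The *Sox4*, *Sox11* and *Sox9* probes shown here read coding stretches, and they are given because each gene's signal is only as specific as these 60 bases. Positions are those printed for the probes on rat build rn4. For *Sox4*, which has a single exon, the brightest probe lay at chr17:42174685-42174744 on the plus strand, towards the end of the coding sequence, and a second probe at chr17:42173535-42173594 covered its start codon. The *Sox11* probe lay at chr6:45142098-45142157 on the minus strand, in a gene that also has 1 exon. The *Sox9* probes lay at chr10:102394224-102394283, within the HMG box, and at chr10:102393822-102393881, from the start codon onwards, both on the plus strand. Capitals mark the start codon.
Sox4, brightest probe: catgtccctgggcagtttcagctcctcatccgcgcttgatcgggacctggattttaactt
Sox4, second probe: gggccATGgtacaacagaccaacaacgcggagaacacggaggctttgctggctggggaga
Sox11: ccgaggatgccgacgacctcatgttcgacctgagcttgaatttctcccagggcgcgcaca
Sox9, brightest probe: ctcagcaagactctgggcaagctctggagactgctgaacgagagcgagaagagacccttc
Sox9, second probe: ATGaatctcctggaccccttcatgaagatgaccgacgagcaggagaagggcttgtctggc
Over the 60 pairs of probes from different genes of the 9, the longest shared run was 4 to 11 bases. The remaining probes of tested genes, the downstream one for *Sox4* (chr17:42175031-42175090), that of *Sox10* (chr7:117138840-117138899, minus strand) and those of *Sox18* (chr3:170820677-170820736 and chr3:170821003-170821062, minus strand), are given by position only. Whether these read coding sequence was not determined.

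Over the time course, 4 of the 5 tested genes changed in Cl19 (all but *Sox18*), where 54.3% of all tested probes did, and 3 of 5 changed in 3c3 (*Sox4*, *Sox11* and *Sox10*), where 50% did. *Sox4*, *Sox11* and *Sox10* ended above their d0 level in each line, and they got there at different times. *Sox4* had risen by d2. *Sox11* and *Sox10* had risen further by d4 in Cl19 than in 3c3, where they did not pass the test until d6. *Sox9* was highest on d2, and *Sox18* did not pass the test on any day. On d6, 3 of 5 genes were higher in Cl19 (22% of all tested probes) and 3 of 5 in 3c3 (19.7%). By limma none was lower in Cl19 (30.3% of all tested probes) or in 3c3 (28.6%), and none was so at an unadjusted p under 0.05 or by the methods' t-test with Benjamini-Hochberg adjustment.

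**Figure D1:**
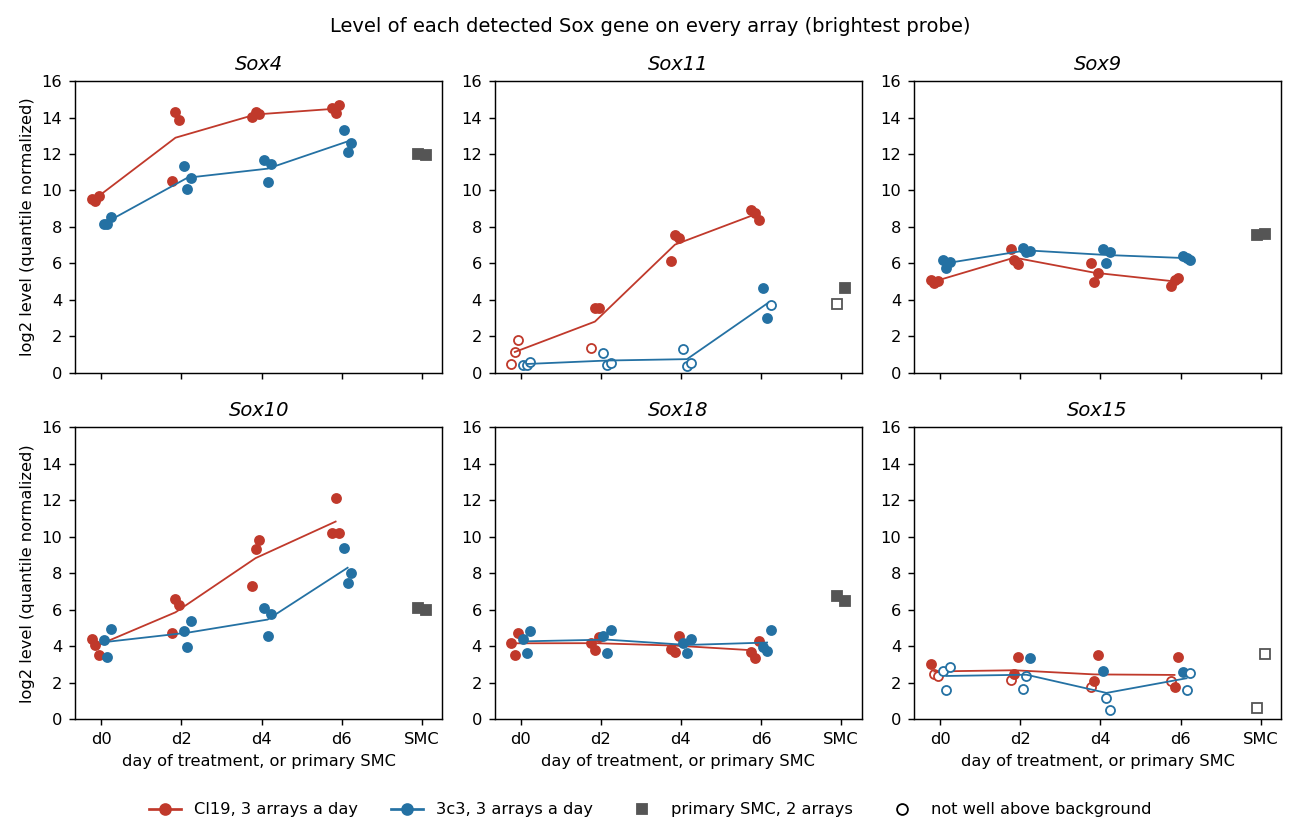
Quantile-normalized log2 level of the 6 detected genes on every array (vertical axis) by day and in primary SMC (horizontal axis). Points are arrays, open where the probe was not well above background, and lines join the means of each day. *Sox4* read 9.41 to 9.71 on d0 of Cl19 and 14.24 to 14.71 on d6, and *Sox18* lay between 3.33 and 4.91 on all 24 rMAPC arrays.

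*Sox4* had risen in both lines by d2. In Cl19 its brightest probe read 9.55, 9.41 and 9.71 on d0, then 10.50, 14.32 and 13.86 on d2, 14.04, 14.29 and 14.17 on d4, and 14.50, 14.24 and 14.71 on d6. All later arrays lay above all d0 arrays, and 2 of the 3 d2 arrays already lay near or above the lowest d4 array. The low d2 value belonged to the array that stood apart. In 3c3 the same probe read 8.16, 8.15 and 8.55 on d0, 11.32, 10.08 and 10.70 on d2, 11.66, 10.46 and 11.47 on d4, and 13.32, 12.13 and 12.62 on d6. Here the d2 and d4 groups overlapped, and the d6 arrays lay above both. By d2 the level had risen by 3.34 ± 0.63 (SE, adjusted p = 0.00066, limma) in Cl19 and by 2.41 ± 0.63 (adjusted p = 0.011) in 3c3. Without Cl19 d2 replicate 1 the Cl19 rise was 4.53 ± 0.36 (adjusted p = 3.6e-08) and exceeded that in 3c3 by 2.13 (adjusted p = 0.017), whereas with that array the difference between the lines was 0.93 (adjusted p = 1). Without 3c3 d2 replicate 1 the 3c3 rise was 2.10 and no longer passed (adjusted p = 0.057), and without the slide of higher background it was 2.54 (adjusted p = 0.078). *Sox4* had been singled out by the study on these same arrays, so its rise here is not independent evidence. The study also refers to a PCR check for its rise, which was not read here.

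Within a slide the d6 minus d0 difference of *Sox4* was at least 4.83 on each Cl19 slide and read 5.16, 3.98 and 4.06 in 3c3, so all 6 slides showed the rise. The change by d6 did not pass a test of the difference between the lines (0.53 ± 0.89, adjusted p = 0.81), although on d6 Cl19 read 1.79 ± 0.63 above 3c3 (adjusted p = 0.038; 0.05 with the slide as a replicate block). From d2 to d4 and from d4 to d6 no step of *Sox4* passed the test in either line. The second probe rose by 3.13 in Cl19 and by 2.35 in 3c3 from d0 to d2, close to the brightest one. The downstream probe rose by 2.40 in Cl19 (adjusted p = 0.0027) but by 1.13 in 3c3 (adjusted p = 0.16).

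*Sox11*, the other SoxC gene measured, started below background in both lines. Its probe entered the tests only through d4 and d6 of Cl19, where all arrays were well above background. Its p-values for rises in Cl19 and for differences from Cl19 are therefore partly set by that filter. In Cl19 it read 0.49, 1.16 and 1.79 on d0 with no array well above background, 1.34, 3.54 and 3.55 on d2 with 2 of 3, 6.16, 7.54 and 7.40 on d4, and 8.95, 8.75 and 8.37 on d6. Each of d4 and d6 lay wholly above the day before it. In 3c3 none of the 9 arrays from d0 to d4 was well above background (0.40 to 1.31), and on d6 the arrays read 4.67, 3.02 and 3.71, with 2 of 3 well above background. Because d0 gives only a bound, the d6 level was at least 80.4-fold that of d0 in Cl19 (adjusted p = 9.4e-10, limma) and at least 2.19-fold in 3c3 (adjusted p = 4e-05), the d0 side being set at the lowest signal well above background on each array. With normexp background correction the 3c3 rise was 0.29 and did not pass (adjusted p = 0.12). On d4 of Cl19 the level was at least 25.5-fold that of d0 (adjusted p = 3.8e-08). The d2 arrays of Cl19 overlapped with those of d0 and differed by 1.66 ± 0.53 (adjusted p = 0.028), by 2.40 without the array that stood apart (adjusted p = 0.00079), and by 0.83 with signals floored at the lowest level above background (adjusted p = 0.25). When 1 of the 6 arrays was left out, the d2 difference ran from 1.29 to 2.40 and passed in 2 of 6 cases (adjusted p = 0.00079 to 0.15).

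The rise of *Sox11* differed between the lines, in tests that the same filter partly set. By d4 it exceeded that in 3c3 by 5.62 ± 0.75 (adjusted p = 4.8e-05), and by d6 by 4.23 ± 0.75 (adjusted p = 0.00045). With floored signals these differences were 4.62 (adjusted p = 0.00011) and 5.04 (adjusted p = 3e-05). Within slides the d6 minus d0 difference was 8.46, 7.58 and 6.59 in Cl19 and 4.23, 2.57 and 3.13 in 3c3, and the 2 sets did not overlap. On d6 Cl19 read at least 26.5-fold above 3c3 (adjusted p = 1e-06).

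*Sox10*, the SoxE factor of neural crest and glia, followed a course like that of *Sox11*. Its single probe was well above background on all 26 arrays. In Cl19 it read 4.41, 4.05 and 3.53 on d0, 4.72, 6.57 and 6.28 on d2, 7.30, 9.35 and 9.83 on d4, and 10.19, 12.13 and 10.18 on d6, with no overlap between successive days. In 3c3 it read 4.33, 3.43 and 4.97 on d0, 4.83, 3.98 and 5.41 on d2, 6.10, 4.54 and 5.74 on d4, and 9.38, 7.49 and 8.03 on d6. There the first 3 days overlapped and d6 stood above them. The increase by d6 was 6.84 ± 0.70 in Cl19 (adjusted p = 1.3e-07, limma) and 4.06 ± 0.70 in 3c3 (adjusted p = 9.1e-05). By d4 it was 4.83 in Cl19 (adjusted p = 1.3e-05) and 1.22 in 3c3 (adjusted p = 0.19), and the lines differed by 3.62 ± 0.99 (adjusted p = 0.017). That difference was lost without Cl19 d4 replicate 3 (3.11, adjusted p = 0.056), without 3c3 d0 replicate 3 (3.25, adjusted p = 0.051) and without the slide of higher background (3.39, adjusted p = 0.088). By d6 the lines differed by 2.78 (adjusted p = 0.06; 0.015 with the slide as a replicate block).

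The timing can be read step by step. From d0 to d2, 3 of 5 genes rose in Cl19 (*Sox4*, *Sox9* and, in 2 of 6 leave-outs, *Sox11*; 11.2% of all tested probes; 4 of 5 without the array that stood apart, with *Sox10* at 2.43 and an adjusted p of 0.022) and 2 of 5 in 3c3 (*Sox4* and *Sox9*; 9.8%). From d2 to d4, *Sox11* and *Sox10* rose in Cl19 (2 of 5; 9.34% of all tested probes), and by limma none did in 3c3 (4.33%), also at an unadjusted p under 0.05. From d4 to d6, *Sox11* (by 3.05) and *Sox10* (by 2.84) rose in 3c3 (2 of 5; 5.91%). In Cl19 no gene rose at that step by limma (3.44%), although 2 did at an unadjusted p under 0.05. These were *Sox11* (1.66, adjusted p = 0.066; 0.017 with the replicate block) and *Sox10* (2.01, adjusted p = 0.096; 0.027 with the block). With the block *Sox10* also rose from d0 to d2 in Cl19 (1.86, adjusted p = 0.016 against 0.063 without it). The d4 change differed between the lines for 2 of 5 genes (14.4% of all tested probes) and the d6 change for 1 of 5 (17.4%).

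**Figure D2:**
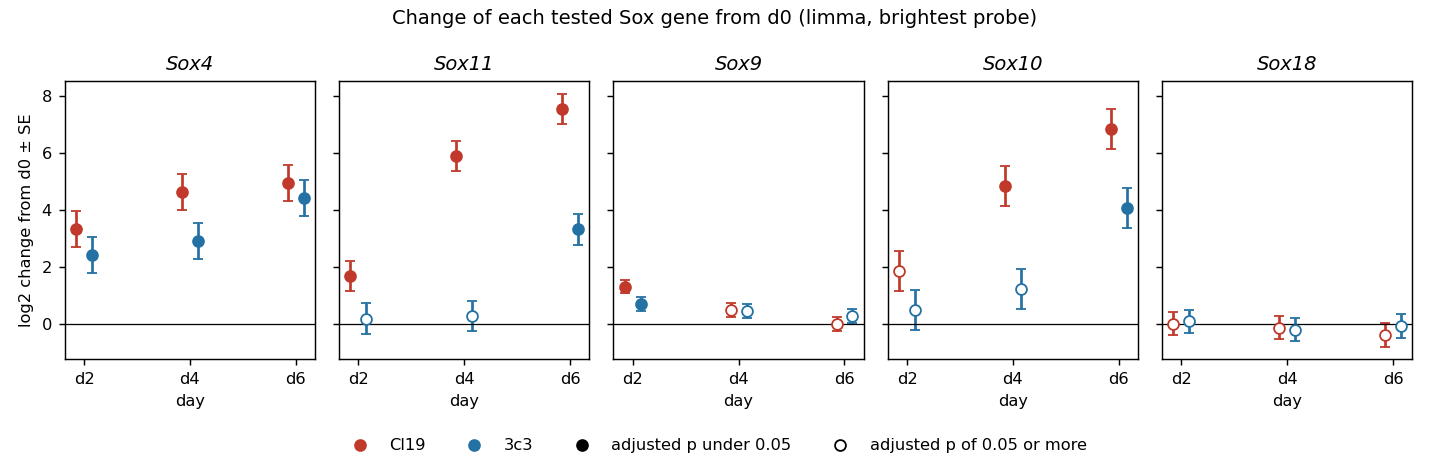
Change from d0 on the log2 scale (vertical axis, limma estimate ± SE) on d2, d4 and d6 (horizontal axis) for the brightest probe of each tested gene, filled where the adjusted p was under 0.05. *Sox4* was filled on all 3 days in both lines, and *Sox11* and *Sox10* in 3c3 only on d6.

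**Figure D3:**
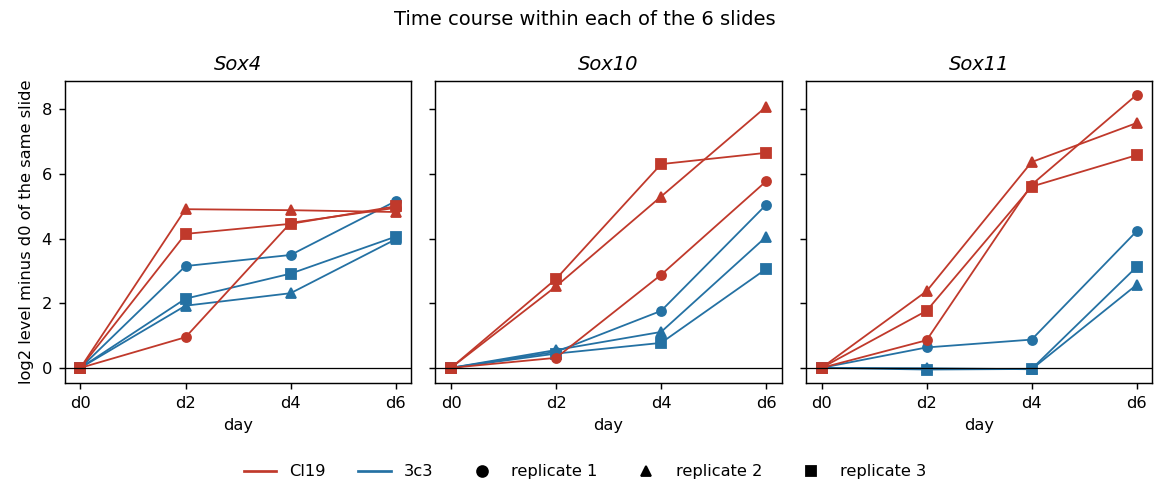
Level minus that of the d0 array on the same slide (vertical axis, log2) by day (horizontal axis) for the 6 rMAPC slides, each a line. Red is Cl19 and blue 3c3. All 6 slides ended above 0 for *Sox4*, *Sox10* and *Sox11*, and for *Sox11* the Cl19 slides ended at 6.59 to 8.46 and the 3c3 slides at 2.57 to 4.23.

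*Sox9*, the cartilage factor, differed from the 3 genes above in that its d6 level did not pass the test against d0 in either line. In Cl19 its brightest probe read 5.11, 4.90 and 5.03 on d0, 6.79, 6.19 and 5.98 on d2, 6.03, 4.97 and 5.48 on d4, and 4.78, 5.07 and 5.20 on d6. The d2 arrays lay above all d0 and d6 arrays. The d2 rise was 1.31 ± 0.24 (adjusted p = 0.00048, limma), or 1.07 without the array that stood apart (adjusted p = 0.003), and the d6 level differed from d0 by 0.00 ± 0.24 (adjusted p = 1). From d2 to d4 the level fell by 0.83 (adjusted p = 0.019), but without that array the step was -0.59 (adjusted p = 0.13). In 3c3 it read 6.18, 5.78 and 6.08 on d0, 6.84, 6.65 and 6.67 on d2, 6.77, 6.01 and 6.61 on d4, and 6.38, 6.29 and 6.21 on d6. Its d2 rise of 0.71 ± 0.24 (adjusted p = 0.044) did not pass when any 1 of the 6 arrays was left out (0.59 to 0.79, adjusted p = 0.062 to 0.16). No later fall passed in 3c3, with steps of -0.26 from d2 to d4 (adjusted p = 0.56) and -0.17 from d4 to d6 (adjusted p = 0.74). The second probe gave d2 rises of 1.40 and 0.77 in Cl19 and 3c3. In Cl19 it was still 0.72 above d0 on d4 (adjusted p = 0.026), where the brightest probe stood 0.48 above (adjusted p = 0.11), and its d6 difference was 0.38 (adjusted p = 0.23). The d2 rise did not pass a test of the difference between the lines (0.60 ± 0.34, adjusted p = 0.84).

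*Sox9* was also the 1 gene of the 5 that differed between the untreated lines, where 3.07% of all tested probes did. On d0 it was 1.00 ± 0.24 lower in Cl19 than in 3c3 (adjusted p = 0.022), with no overlap between the 3 arrays of each, and the second probe gave 0.84 in the same direction (adjusted p = 0.094). On d6, 4 of 5 genes differed between the lines (29.1% of all tested probes), with *Sox4*, *Sox11* and *Sox10* higher in Cl19 and *Sox9* again lower, by 1.28 ± 0.24 (adjusted p = 0.00039).

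*Sox18*, an endothelial factor, did not pass the test in either line. Its brightest probe read 3.33 to 4.75 over the 12 Cl19 arrays and 3.61 to 4.91 over the 12 3c3 arrays, and the d6 minus d0 difference was -0.39 ± 0.41 in Cl19 (adjusted p = 0.45) and -0.07 ± 0.41 in 3c3 (adjusted p = 0.91). On every day of each line replicate 2 was the lowest and replicate 3 the highest array, and with the slide as a replicate block the Cl19 difference had an SE of 0.15 and passed (adjusted p = 0.033). The second probe was well above background on 4 of the 24 rMAPC arrays. Its d6 difference in 3c3 was called (-1.55, adjusted p = 0.025), but none of those 6 arrays was well above background, and with the floor it was 0.16. *Sox15* was well above background on 10 of 26 arrays, including 7 of 12 in Cl19 and 3 of 12 in 3c3, but on all 3 arrays of no group, so it was not tested. Its level ranged from 0.53 to 3.59. A probe outside the naming rule, described as a fragment of *Sox5*, was looked at after its values were seen. It rose from 4.76 to 6.86 in 3c3 between d0 and d6 (2.10 ± 0.40, adjusted p = 0.00022), and in Cl19 it read 4.40 on d0 and 5.31 on d6 (adjusted p = 0.061).

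Against primary SMC the genes split. On both arrays *Sox9* (7.58 and 7.62) and *Sox18* (6.75 and 6.47) lay above all 24 rMAPC arrays, whereas *Sox10* (6.07 and 5.96) lay below every d6 array. *Sox9* was higher than on d6 by 2.58 ± 0.27 in Cl19 (adjusted p = 4.6e-08, limma) and by 1.31 ± 0.27 in 3c3 (adjusted p = 0.00022), and *Sox18* by 2.84 ± 0.46 (adjusted p = 1.5e-05) and 2.41 ± 0.46 (adjusted p = 9.7e-05). *Sox10* was lower by 4.82 ± 0.78 than Cl19 d6 (adjusted p = 1.8e-05) and by 2.29 ± 0.78 than 3c3 d6 (adjusted p = 0.014). The latter was lost when 3c3 d6 replicate 1 (adjusted p = 0.068) or either primary array (adjusted p = 0.052 and 0.064) was left out. *Sox4* (11.98 and 11.94) was 2.52 ± 0.71 below Cl19 d6 (adjusted p = 0.0035), and its difference from 3c3 d6 was -0.73 ± 0.71 (adjusted p = 0.36). *Sox11* (3.75 and 4.63, with 1 of 2 well above background) was at least 21.4-fold lower than on d6 of Cl19 (adjusted p = 1.2e-06), and it overlapped with 3c3 d6.

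In all, 2 of 5 genes were higher in primary SMC than on d6 of Cl19 (32.8% of all tested probes) and 3 of 5 lower (38.6%). Against d6 of 3c3, 2 of 5 were higher (33.4%) and 1 of 5 lower (38.1%). Against d0 all 5 were higher in primary SMC, in Cl19 (31.2% of all tested probes) and in 3c3 (31.5%), although with the slide as a replicate block *Sox10* did not pass in 3c3 (adjusted p = 0.06). The scaling matters for these differences, since in the deposited table, which is not scaled between arrays, the median tested probe was 2.17 lower in primary SMC than on d6 of Cl19 and 2.09 lower than on d6 of 3c3. There *Sox9* read 0.12 above Cl19 d6 and 1.00 below 3c3 d6. Relative to those shifts it stood 2.29 and 1.09 above, and *Sox18* 2.61 and 2.26 above.

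**Figure D4:**
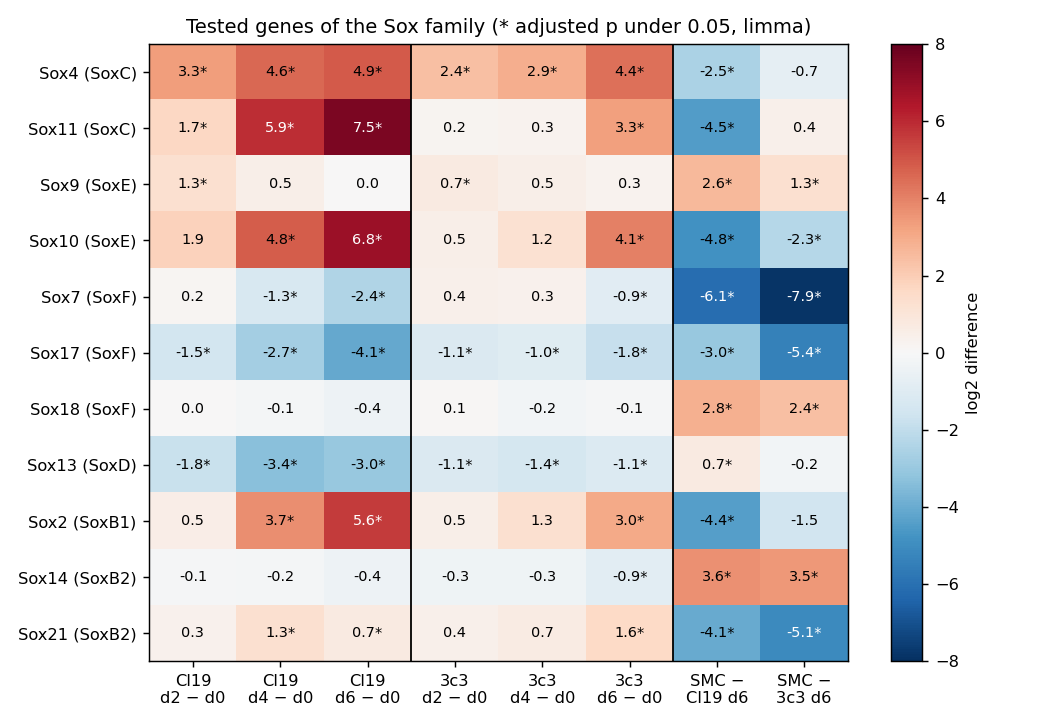
Log2 differences (limma, color scale and printed values) for the 11 tested genes of the Sox family (rows) in 8 comparisons (columns), with asterisks where the adjusted p was under 0.05. *Sox4*, *Sox11* and *Sox10* rose in both lines, *Sox17* and *Sox13* fell, and *Sox9* and *Sox18* were higher in primary SMC.

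The rest of the family was read for context. Beside the counts of these lists, Cl19 had 22% of all tested probes higher by d6 and 30.3% lower, while for 3c3 these shares were 19.7% and 28.6%. Of the 10 other Sox genes listed, 8 had a probe and 6 were tested. By d6, 2 of 6 were higher and 3 of 6 lower in Cl19, and 2 and 4 of 6 in 3c3. Their median changes were -1.41 and -0.89, against -0.20 and -0.21 over all tested probes. *Sox17*, the endoderm and endothelial relative of *Sox18*, fell from 12.00 to 7.88 in Cl19 (adjusted p = 4e-09) and from 12.10 to 10.26 in 3c3 (adjusted p = 0.00011). *Sox7*, also SoxF, fell by 2.41 in Cl19 and by 0.94 in 3c3. It was not well above background in primary SMC, where *Sox18* was at its highest. *Sox13*, a SoxD gene, fell by 3.02 in Cl19 and by 1.12 in 3c3. *Sox2*, the pluripotency and neural progenitor factor, went the other way. It was below background throughout d0 and read 7.43 on d6 of Cl19 (adjusted p = 1.5e-06) and 4.54 on d6 of 3c3 (adjusted p = 0.0014). The *Sox2* probe entered the tests only through treated days, so these p-values are partly set by the detection filter.

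Genes known downstream of the SoxC factors were read beside *Sox4* and *Sox11*. Of 6 listed and tested, 3 rose and 1 fell by d6 in Cl19, with a median change of 0.67 against -0.20 over all tested probes. In 3c3, 1 rose and 1 fell, with a median of -0.42 against -0.21. All tested probes were higher in 22% and lower in 30.3% of cases in Cl19, and in 19.7% and 28.6% in 3c3, so the 3c3 counts are no more than that share. *Tead2*, a Hippo pathway transcription factor, rose from 7.76 to 10.75 in Cl19 (adjusted p = 0.00028), while 3c3 read 7.90 on d0 and 8.49 on d6 (adjusted p = 0.44). *Tubb3*, a neuronal tubulin, rose by 2.16 in Cl19 (adjusted p = 0.0044), and its change was 3.07 higher in Cl19 than in 3c3 (adjusted p = 0.014). *Dcx*, a microtubule protein of migrating neurons, rose in 3c3, where it read 2.15 on d0 and 4.98 on d6 (adjusted p = 0.00099). No d0 array of 3c3 was well above background for it, so the size of this rise is uncertain. In Cl19 the *Dcx* difference was -1.48 (adjusted p = 0.055). The line difference of *Dcx* thus ran the other way from that of *Tubb3* (-4.32, adjusted p = 0.0017), and its size is uncertain too. *Stmn2*, another neuronal microtubule gene, fell in both lines, by 2.74 in Cl19 and by 6.21 in 3c3.

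Beside *Sox10*, 16 genes of neural crest and glia were listed and 10 tested. By d6, 3 rose and 2 fell in Cl19, and 2 rose and 2 fell in 3c3, with medians of -0.16 and -0.31 against -0.20 and -0.21 over all tested probes. Counts and medians both lay near those of all tested probes (22% higher and 30.3% lower in Cl19, 19.7% and 28.6% in 3c3), so nothing is read from the list as a whole. *Erbb3*, the neuregulin receptor of Schwann cells, went from below background on all d0 arrays to 6.02 on d6 of Cl19 (adjusted p = 1.3e-09) and 5.34 on d6 of 3c3 (adjusted p = 3.5e-08). *Pmp22*, a myelin protein, went from 1.54 on d0, with 1 of 3 arrays well above background, to 8.90 on d6 in Cl19 (adjusted p = 9.1e-06). In 3c3 it reached 3.32 from below background (adjusted p = 0.019), and in primary SMC it read 10.36. *Ednrb*, the endothelin receptor of migrating crest cells, reached 4.69 in Cl19 (adjusted p = 3.2e-09) and stayed below background in 3c3, and this change differed between the lines (adjusted p = 4.7e-06). The *Ednrb* probe entered the tests only through treated days of Cl19, and that of *Erbb3* only through treated days of the lines. The p-values of these 2 genes are therefore partly set by the detection filter. In Cl19 the receptor gene *Ret* fell by 6.25, and *Mbp*, a myelin protein, fell by 1.95. In 3c3 the neurotrophin receptor gene *Ngfr* fell by 3.92 (adjusted p = 0.0028), and *Mitf*, the melanocyte regulator, fell by 2.02 (adjusted p = 0.013). Of 8 Schwann cell or glia markers, 5 were well above background on all d6 arrays of Cl19 and 4 on those of 3c3, against 3 on d0 of each line. Mean levels over the list were 4.41 to 4.51 per array on d6 of Cl19 and 3.34 to 3.75 on d6 of 3c3. On d0 they were 2.75 to 3.06 in Cl19 and 2.66 to 2.98 in 3c3. *S100b* and *Gjb1* were below background on every d6 array, and the part of such cells in the *Sox10* rise was not tested.

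Beside *Sox9*, 16 cartilage matrix genes had a probe and 11 were tested. By d6, when *Sox9* no longer passed the test against d0, 4 rose and 1 fell in Cl19, and 4 rose in 3c3, with medians of 0.39 and 0.25 against -0.20 and -0.21 over all tested probes. The share of all tested probes was 22% higher and 30.3% lower in Cl19, and 19.7% higher in 3c3. *Col2a1*, the main cartilage collagen, went from below background to 9.28 on d6 of Cl19 (adjusted p = 6.2e-08) and 5.31 on d6 of 3c3 (adjusted p = 0.0072). *Cnmd*, which encodes chondromodulin, reached 7.18 in Cl19 (adjusted p = 5.4e-08), and the changes of both genes differed between the lines (adjusted p = 0.0018 and 0.001). The *Col2a1* and *Cnmd* probes entered the tests only through treated days of the lines, so their p-values are partly set by the detection filter. *Comp*, a matrix protein, rose by 2.08 and by 1.93. *Acan*, the cartilage proteoglycan, and *Epyc* were below background on every d0 and d6 array of the lines and read 10.96 and 10.15 in primary SMC, where *Col2a1* was below background. Of 8 chondrocyte markers, 4 were well above background on all d6 arrays of Cl19 and 3 in primary SMC, with mean levels of 3.73 to 4.37 and 3.98 to 4.28 per array.

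Beside *Sox18*, 16 vascular endothelial and lymphatic genes were listed and 11 tested. By d6, 1 rose and 6 fell in Cl19, with a median change of -1.98, and 2 rose and 2 fell in 3c3, with a median of -0.05. The shares of all tested probes were again 22% up with 30.3% down for Cl19 and 19.7% with 28.6% for 3c3, so the 3c3 counts did not exceed that share. *Lyve1*, a lymphatic receptor, fell from 5.86 to 0.65 in Cl19, below background. *Tek*, the angiopoietin receptor, fell from 6.01 to 0.65, also below background, and *Pecam1* fell by 3.72 in Cl19 and by 2.11 in 3c3. In primary SMC, where *Sox18* was higher, none of 10 endothelial markers was well above background on both arrays, and *Pecam1*, *Tek*, *Kdr* and *Tie1* were so on neither. In the list read beside *Sox18*, 3 of 11 tested genes were higher there than on d6 of Cl19 and 4 lower. The shares of all tested probes were 32.8% and 38.6%, so neither count exceeded its share. The higher ones were the adhesion molecule *Vcam1* at 12.61 and *Egfl7* at 12.28, each on both arrays, and *Cdh5* at 3.99 with 1 of 2 arrays well above background. Mean levels over the 10 endothelial markers were 1.28 to 1.93 per array in primary SMC and 3.62 to 3.83 on d0 of Cl19. Of 6 slow muscle fibre genes known to be repressed by *Sox6*, which stayed below background, 5 were tested. By d6, 2 of 5 rose in each line (*Myl2* and *Tnni1* in Cl19, *Myl2* and *Tnnc1* in 3c3), against 22% of all tested probes in Cl19 and 19.7% in 3c3. *Myl2* went from below background to 4.26 in Cl19 (adjusted p = 2.4e-06) and 5.84 in 3c3 (adjusted p = 2.5e-07). The *Myl2* probe entered the tests only through treated days, so these p-values are partly set by the detection filter.

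Epithelial markers also rose. All 6 were higher by d6 in Cl19, against 22% of all tested probes, and 5 of 6 in 3c3, against 19.7%. By d2 all 6 were already higher in each line, against 11.2% of all tested probes in Cl19 and 9.8% in 3c3. In Cl19 their mean level per array was 11.07 to 11.21 on d0 and 14.06 to 14.22 on d6. In primary SMC it was 4.21. Of 7 fibroblast markers, 2 were well above background on all d0 arrays of Cl19 and 5 on all its d6 arrays, with mean levels of 3.34 to 3.62 and 5.72 to 6.01, against 10.45 to 10.51 in primary SMC. In 3c3 the number was 2 of 7 on d0 and on d6. There 1 of 6 tested markers was higher by d6 and 1 lower, against 19.7% and 28.6% of all tested probes. Their part in the Sox changes was not tested, and fewer cells of a type cannot be told apart from less RNA per cell in bulk RNA.

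Over the 9 group means, the 3 named genes whose level ran most like that of *Sox4* were *Ddah2* (Pearson r = 0.99), *Mov10* (0.98) and *Dact1* (0.98). For *Sox11* they were *Itpr3* (0.99), *Slc13a5* (0.99) and *Abra* (0.98), and for *Sox10* *Zswim4* (0.99), *Tff3* (0.99) and *Map1b* (0.99). *Sox9* ran most like *RT1-Db1* (0.96), *Olr920* (0.95) and *Atn1* (0.95), and *Sox18* like *Csn2* (0.99), *Sarm1* (0.99) and *Tspan18* (0.99). These are descriptions over 9 groups of shared arrays, picked as the highest of all tested probes.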

How the data were processed

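RNA from 26 samples was hybridised to 1-color Agilent rat arrays, and the authors extracted signals with Agilent Feature Extraction 10.1.1.1 (background subtraction and spatial detrending, rn4 annotation). The deposited scanner files hold intensity values per spot, and the deposited series table holds their log2, equal to the scanner signal within 5.2e-14 and not scaled between arrays. Here the spots of a probe were averaged, control spots and outlier flags were left out, and the log2 signals were quantile normalized between arrays, as in the study's methods. Tested probes (24442 of 41012) were those that passed the scanner's well-above-background call throughout some group. A single limma fit (version 3.58.1, R 4.3.3) held the 26 arrays in 9 groups, with Benjamini-Hochberg adjustment over all tested probes. The script was tested on simulated data.

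The members and gene lists were chosen with earlier results of these data known. A gene is counted by its brightest probe, and the 3 most similar genes were taken by Pearson correlation. Genes were matched by the name on the array or by RefSeq accession (GRCr8 table), which gave probes for 68 context genes. Samples on the same slide deviated together (correlation of the d0 and d6 deviations 0.108 to 0.504 in all 6 slides), so replicate numbers pair the days within a line. Alternatives were 75th percentile scaling, the deposited table, normexp correction (offset 50), no filter, a floor at the lowest signal well above background, a slide block, a fit per line, the mean over probes, the methods' t-test, leaving out each array and, added after seeing the data, leaving out 1 slide. The number of arrays limits the precision. The labels and the methods name different suppliers of the primary SMC RNA.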

Additional observations from a re-analysis of the deposited data

Results flagged for a closer look

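The rise of *Sox11* differed between the lines by a test of the difference itself (limma, 3 arrays per line and day). From d0 to d4 it was 5.62 larger on the log2 scale in Cl19 than in 3c3 (adjusted p = 4.8e-05), and from d0 to d6 4.23 larger (adjusted p = 0.00045). All 3 Cl19 slides exceeded all 3 3c3 slides at both times, and the 3c3 arrays were below background until d4. The *Sox11* probe entered the tests only through d4 and d6 of Cl19, so these p-values are partly set by that filter. The rise of *Sox10* from d0 to d4 was 3.62 larger in Cl19 (adjusted p = 0.017), again with all 3 Cl19 slides above all 3 3c3 slides.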

How the results depend on the processing

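Of 158 recomputed counts of Sox genes, 151 stayed within 1.5 times the reported count, and of 695 recomputed differences of single probes, 616 kept their direction and side of the threshold. With at most 5 genes that limit is loose, since it takes 2 and 3 as the same. For primary SMC against d6 of 3c3, for example, the count ran from 2 to 3 when 1 array was left out. In the deposited table, 3 of 5 genes rather than 5 differed between primary SMC and d6 of Cl19. The d6 change differed between the lines for 2 genes rather than 1 with normexp correction and with the slide as a replicate block, and for 1 to 2 when 1 array was left out (2 without 3c3 d6 replicate 1 or 3c3 d0 replicate 2). Lower on d6 was 1 gene rather than 0 in Cl19 with the replicate block (*Sox18*, -0.39) and 1 in 3c3 with the mean over all probes. Besides these and the calls given with the results, the block removed that of the downstream *Sox4* probe against d6 of Cl19 (adjusted p = 0.062), and added a fall of the second *Sox9* probe from d2 to d4 in Cl19 (adjusted p = 0.039).

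The sign turned in the deposited table for primary SMC against d6 of 3c3 in the downstream *Sox4* probe (-1.88), *Sox11* (-1.54) and both *Sox9* probes (-1.001 and -1.18), and against d6 of Cl19 in the second *Sox9* probe (-0.53). It also turned for the d6 change of *Sox18* in Cl19 (0.11, deposited table) and in 3c3 (0.054 with 75th percentile scaling and 0.36 in the deposited table), and for the second *Sox18* probe in 3c3 (0.16 with the floor). When 1 array was left out, the value ran from -0.048 to 0.83 for *Sox11* in primary SMC against d6 of 3c3, from -0.0885 to 0.12 for the d6 change of *Sox9* in Cl19, from -0.42 to 0.20 for that of *Sox18* in 3c3 and from -1.17 to 0.21 for that of the second *Sox18* probe in Cl19. The cause of these turns was not tested.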
